A study of Mus musculus with 12 samples.

Results

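The genes of de novo fatty acid synthesis described here are 10 of the 47729 genes counted in 12 bulk RNA-seq libraries of mouse fat. They were chosen by name: Srebf1, Mlxipl, Acly, Acaca, Acacb, Fasn, Scd1, Scd2, Elovl6 and Aacs, each found under 1 gene identifier. The libraries came from wild type male C57BL/6J mice fed a high-fat rodent diet, for which the series gives an age of 6 to 10 weeks. Interscapular brown fat (BAT), epididymal white fat (EWAT), inguinal white fat (IWAT) and retroperitoneal white fat (RWAT) gave 3 libraries each. All 4 depots had been surgically denervated, so every comparison below is between denervated depots, and the effect of denervation was not tested. The labels do not say whether the 3 libraries of a depot came from separate animals or which depots came from the same animal. The p-values therefore measure the spread between these libraries, which may be technical in part.

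De novo synthesis builds fatty acids from acetyl-CoA. Acly cleaves citrate in the cytosol to acetyl-CoA, the acetyl-CoA carboxylases Acaca and Acacb turn it into malonyl-CoA, and Fasn joins these units into palmitate. Elovl6 lengthens palmitate, and the stearoyl-CoA desaturases Scd1 and Scd2 place a double bond in the product. Aacs activates the ketone body acetoacetate in the cytosol and so offers another source of acetyl units. Srebf1 encodes SREBP-1, a transcription factor that responds to insulin, and Mlxipl encodes ChREBP, which responds to glucose. Adipose tissue is a main site of this pathway in the mouse, and a high-fat diet is known to lower it.

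The sequences upstream of the start sites are shown for the 4 genes called below and for Fasn, the gene with the widest range over the libraries. They come from RefSeq on GRCm38.p6, where 8 of the 10 genes had 11 start sites in all. Each line runs 5′ to 3′ on the gene's strand and ends at the base before the start.
Fasn, chr11:120824548-120824797, minus strand: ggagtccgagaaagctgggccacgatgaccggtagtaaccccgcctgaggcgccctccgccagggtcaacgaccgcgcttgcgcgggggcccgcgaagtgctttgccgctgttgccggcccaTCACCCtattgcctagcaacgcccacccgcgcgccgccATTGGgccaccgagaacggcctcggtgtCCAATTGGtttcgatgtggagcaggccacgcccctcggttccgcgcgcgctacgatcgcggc
Srebf1, chr11:60210472-60210721, minus strand: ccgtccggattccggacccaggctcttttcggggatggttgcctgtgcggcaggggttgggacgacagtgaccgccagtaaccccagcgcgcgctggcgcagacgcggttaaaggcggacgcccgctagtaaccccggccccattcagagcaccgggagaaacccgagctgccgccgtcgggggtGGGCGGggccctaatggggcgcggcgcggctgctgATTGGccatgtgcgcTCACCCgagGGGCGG
Acaca, chr11:84195188-84195437, plus strand: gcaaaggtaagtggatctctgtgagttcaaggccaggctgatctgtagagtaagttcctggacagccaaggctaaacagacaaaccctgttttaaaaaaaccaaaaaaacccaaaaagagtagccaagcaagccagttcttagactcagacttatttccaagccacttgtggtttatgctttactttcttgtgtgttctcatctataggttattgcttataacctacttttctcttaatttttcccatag
Acacb, chr5:114165268-114165517, plus strand: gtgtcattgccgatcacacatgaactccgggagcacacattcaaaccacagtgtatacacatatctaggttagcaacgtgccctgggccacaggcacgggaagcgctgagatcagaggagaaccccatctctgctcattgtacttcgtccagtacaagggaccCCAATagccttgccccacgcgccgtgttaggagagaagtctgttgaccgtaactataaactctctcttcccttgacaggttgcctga
Aacs, chr5:125475623-125475872, plus strand: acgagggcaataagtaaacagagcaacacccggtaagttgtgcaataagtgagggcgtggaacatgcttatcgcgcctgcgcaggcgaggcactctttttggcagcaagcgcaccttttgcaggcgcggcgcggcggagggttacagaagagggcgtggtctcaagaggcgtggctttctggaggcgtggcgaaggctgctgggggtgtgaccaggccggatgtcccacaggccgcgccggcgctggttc
Capitals mark matches on either strand to CCAAT (the box bound by NF-Y), CACGTG (an E-box), TCACCC and TCACNCCAC (forms of the sterol regulatory element) and GGGCGG (the box bound by Sp1). TCACCC can lie inside TCACNCCAC, and CCAAT can overlap its own reverse complement, which happened once upstream of Fasn. The Fasn window held 3 matches to CCAAT and 1 to TCACCC. Of 3 Srebf1 windows, the one with the most matches is shown. It lies inside the annotated gene and had 1 match to CCAAT, 1 to TCACCC and 2 to GGGCGG. The Srebf1 window at chr11:60220628-60220877 had 2 matches to GGGCGG, and that at chr11:60222582-60222831 had 1 to CCAAT. Acacb had 1 match to CCAAT, and the windows of Acaca and Aacs had none of the letters searched. Of all 32851 windows of 250 bases, 33.8% held CCAAT, 6.02% CACGTG, 13.8% TCACCC, 32.7% GGGCGG and 1.05% TCACNCCAC. The Acaca and Acacb windows also lie inside their genes, which span chr11:84129672-84401651 and chr5:114146535-114250761.

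Total counts were 12933516 to 21106554 per library, and the 10 genes took 0.214% (EWAT 1) to 4.23% (IWAT 1) of them. Levels between libraries are given as CPM, counts relative to the library's total, scaled by TMM factors. TPM, which is per transcript length, is used to set genes side by side. However, 3 small RNAs (Rn7s1, Rn7s2 and Rn7sk) held between 11.5% and 54.0% of a library's TPM. This moved all other TPM values between libraries, so the depot order below is given in CPM as well. Of the 10 brown adipocyte markers, Zic1 and Lhx8 were present in all 3 BAT libraries, with 7.35 to 16.02 CPM of Zic1. Ucp1, the uncoupling protein of brown fat, stood at 1489 CPM in BAT 1 but at 0.254 and 1.70 in BAT 2 and BAT 3. The 10 markers summed to 2252 CPM in BAT 1 but to 32.6 and 46.7 in BAT 2 and BAT 3. IWAT 1 and IWAT 2 lay above BAT 2 and BAT 3 in this sum, at 156 and 75.0 CPM. The other white libraries had 7.95 (EWAT 1) to 32.3 (RWAT 3). The summed CPM of 14 adipocyte markers was 1968 in EWAT 1, the lowest of the 12, and 38661 in IWAT 1, the highest. IWAT 1 also stood apart in most of the 10 genes and is given with and without below.

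Of the 10 fatty acid synthesis genes, 4 were higher in inguinal than in epididymal fat by the edgeR quasi-likelihood test (Benjamini-Hochberg adjusted p below 0.05): Srebf1, Acaca, Acacb and Aacs. None was lower, 6 had an unadjusted p below 0.05 (29.7% of all genes), and 10 of 10 fold changes were positive, with a median log2 fold change of 1.78. Over all 18942 genes tested, 4.43% were called higher and 4.6% lower in IWAT, 9.03% in all, and the median log2 fold change was 0.02. The 3 IWAT libraries lay above the 3 EWAT libraries in CPM for 7 of the 10 genes, which held for 17.3% of all genes tested. Those were Srebf1, Mlxipl, Acaca, Acacb, Fasn, Scd1 and Aacs, whereas Acly, Scd2 and Elovl6 overlapped.

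The order of the depot means depended on single libraries. In TPM, IWAT had the highest mean of the 4 depots for 10 of the 10 genes, but for 6 without IWAT 1, when EWAT led for Acly and Scd2 and BAT for Fasn and Elovl6. In CPM, IWAT was highest for 9, with BAT highest for Elovl6, and for 5 without IWAT 1. EWAT had the lowest mean TPM for 8 genes and the lowest mean CPM for 7. Without RWAT 1 these counts were 5 and 3, and without EWAT 2 they were 5 and 5.

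**Figure D1:**
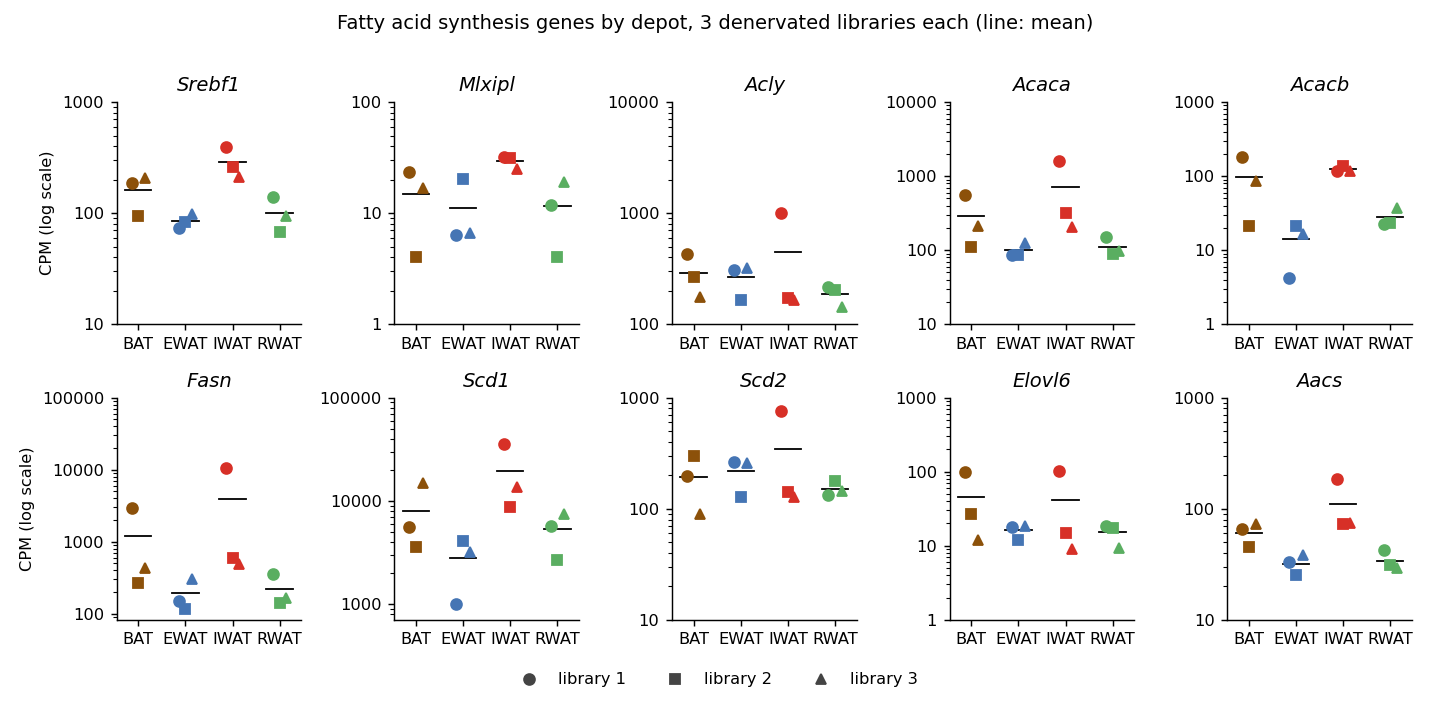
CPM (log axis) of each gene in each of the 12 libraries, by depot, with the 3 libraries of a depot as separate marks and their mean as a line. IWAT 1 is the highest mark for 9 of the 10 genes, and Acacb is the exception, where the 3 IWAT libraries lie together at 119 to 137 CPM.

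Without IWAT 1 none of the 10 genes passed the threshold against EWAT, and 45 genes in all did in place of 1710. The Srebf1 log2 fold change was then 1.47 ± 0.36 (SE; edgeR adjusted p = 0.0754), that of Acacb 3.18 ± 0.79 (adjusted p = 0.0754) and that of Aacs 1.20 ± 0.26 (adjusted p = 0.0614). Acaca had 1.40 ± 0.54 (adjusted p = 0.160) and Fasn 1.49 ± 0.87 (adjusted p = 0.321). Acly, Scd2 and Elovl6 turned to −0.66, −0.69 and −0.42. No gene of the 10 was called without IWAT 2, EWAT 1 or EWAT 3 either, and 16, 434 and 121 of all genes were.

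**Figure D2:**
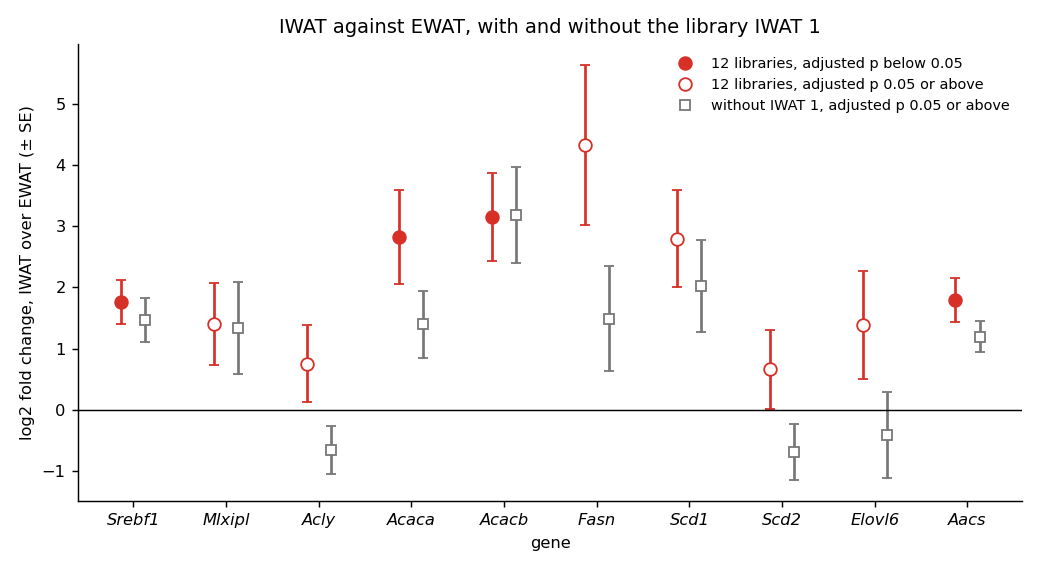
log2 fold change of IWAT over EWAT for each gene, from all 12 libraries (red) and without IWAT 1 (grey squares). Bars are standard errors derived from the edgeR F statistic. Filled marks have an adjusted p below 0.05. Fasn falls from 4.34 to 1.49, Acacb stays at 3.15 and 3.18, and Acly, Scd2 and Elovl6 cross 0.

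The summed level of adipocyte markers did not overlap between IWAT and EWAT either. The 14 adipocyte markers summed to 24485 to 38661 CPM in IWAT and 1968 to 12799 in EWAT, with 14 of 14 log2 fold changes above 0, a median of 2.02, and 1 called (Cebpa, 1.46 ± 0.40, edgeR adjusted p = 0.045). Macrophage markers ran the other way: their summed CPM was 10154 to 11951 in EWAT and 2861 to 4176 in IWAT, and 4 of 11 entries (10 genes, Itgam under 2 identifiers) were called lower. Mesothelial markers summed to 54.9 to 152 CPM in EWAT and 3.12 to 5.69 in IWAT, with 6 of 9 called lower. The mammary and skin epithelium markers Csn2 and Wap were listed at 0 in all 12 libraries, and the 9 markers summed to 0.915 CPM in IWAT 1. In bulk tissue, fewer cells of a type and less RNA per cell cannot be told apart. With the mean log2 CPM of the adipocyte markers as a covariate, none of the 10 genes and none of all genes was called in IWAT against EWAT. The median log2 fold change of the 10 genes was then 1.38, and Mlxipl turned to −0.27. This covariate did not overlap between the depots (9.95 to 10.56 in IWAT, 6.09 to 8.81 in EWAT). The fit therefore cannot separate the marker level from the depot, and its lack of calls decides nothing about either.

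The transcription factors were both highest in IWAT. Srebf1 was at 394, 260.1 and 212 CPM in IWAT 1 to 3 and at 73.2, 84.0 and 98.5 in EWAT 1 to 3. It stood at 185, 94.7 and 207 CPM in BAT 1 to 3 and at 140.0, 67.1 and 94.1 in RWAT 1 to 3. All 3 IWAT libraries were above the other 9, and the log2 fold change over EWAT was 1.76 ± 0.36 (SE, edgeR adjusted p = 0.0222). Srebf1 reads do not separate the SREBP-1a and SREBP-1c transcripts at the gene level. Mlxipl was at 32.2, 31.3 and 24.9 CPM in IWAT, at 6.38, 20.4 and 6.69 in EWAT, at 23.4, 4.005 and 16.9 in BAT and at 11.9, 4.05 and 19.2 in RWAT. Again the IWAT libraries were the 3 highest of 12, but the spread in the other depots was wide, and the log2 fold change of 1.40 ± 0.68 over EWAT did not pass (edgeR adjusted p = 0.190). BAT 2 and RWAT 2 had the lowest Mlxipl, and their adipocyte markers summed to 5575 and 5533 CPM, the lowest after EWAT 1. Per length, Srebf1 was the more abundant: 242 ± 52.9 TPM in IWAT (SD, n = 3) against 18.2 ± 5.33 for Mlxipl.

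Acly, the citrate cleavage enzyme, did not follow the depots. Its CPM was 1007, 171 and 166 in IWAT, 310.1, 167 and 320.5 in EWAT, 426, 265 and 176 in BAT and 216, 204 and 144 in RWAT. IWAT 1 alone was far above the rest, at 5.97 times the mean of IWAT 2 and 3, which lay at the level of the lowest EWAT library. The log2 fold change of 0.75 ± 0.63 over EWAT was within this spread (edgeR adjusted p = 0.467).

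The 2 carboxylases make the same product at different places. Acaca, whose malonyl-CoA feeds Fasn in the cytosol, was at 1586, 320.4 and 203 CPM in IWAT and at 86.2, 87.1 and 125 in EWAT. It was at 549.9, 111 and 212 in BAT and at 149, 88.3 and 97.8 in RWAT. The lowest IWAT library was above all 6 EWAT and RWAT libraries, and IWAT 1 was 6.06 times the mean of the other two. The log2 fold change over EWAT was 2.82 ± 0.77 (edgeR adjusted p = 0.0446).

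Acacb, the carboxylase at the mitochondrial membrane, whose malonyl-CoA holds back fatty acid import for oxidation, behaved differently within IWAT. Its CPM was 119, 137 and 119 in IWAT, 4.14, 21.5 and 16.6 in EWAT, 184, 20.9 and 87.1 in BAT and 22.5, 23.0 and 37.7 in RWAT. The 3 IWAT libraries were alike and IWAT 1 was not raised, at 0.929 times the mean of IWAT 2 and 3. The highest value of all was in BAT 1, the library with Ucp1, and the lowest in EWAT 1, the library with the fewest adipocyte transcripts. The log2 fold change of IWAT over EWAT was 3.15 ± 0.72 (edgeR adjusted p = 0.0294).

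Fasn, the synthase itself, had the widest range of the 10 genes, 89.6-fold from the lowest to the highest library. Its CPM was 10533, 591 and 487 in IWAT, 149, 118 and 307 in EWAT, 2923, 271 and 425 in BAT and 351, 139 and 165 in RWAT. IWAT 1 was 19.5 times the mean of IWAT 2 and 3, and BAT 1 was 8.39 times the mean of BAT 2 and 3. No other library passed 591 CPM. All 3 IWAT libraries were above the EWAT and RWAT libraries, yet with this spread the log2 fold change of 4.34 ± 1.31 over EWAT missed the threshold (edgeR adjusted p = 0.0581). Over 22 alternative fits with a value, the adjusted p for Fasn ran from 0.0403 to 0.720, and 4 of them called it. The share of all genes called is not given for each of these fits.

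**Figure D3:**
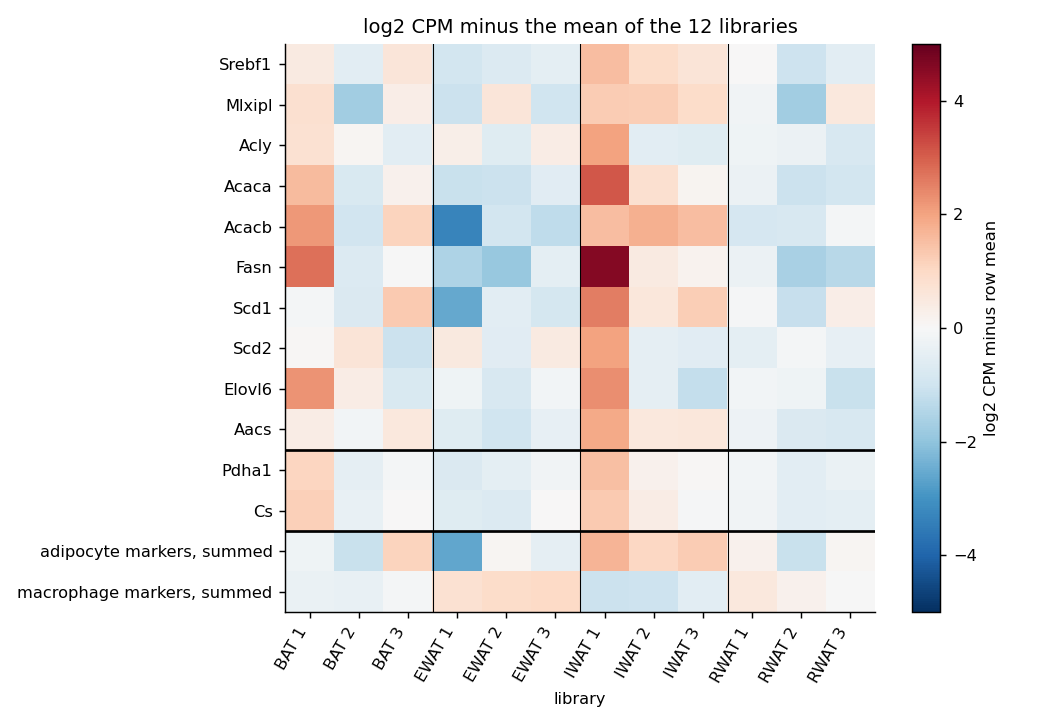
log2 CPM of each gene minus its mean over the 12 libraries, with Pdha1 and Cs, which are described further on, and the summed CPM of the adipocyte and macrophage markers, one column per library. Red is above and blue below the mean. Fasn is 4.60 above its mean in IWAT 1 and 2.75 above in BAT 1, where the adipocyte markers stand at 1.68 and −0.21.

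Scd1 was the most abundant gene of the 10 in every depot. It was at 35384, 8782 and 13814 CPM in IWAT, 1010.5, 4109 and 3206 in EWAT, 5627, 3601 and 14771 in BAT and 5695, 2710.3 and 7509 in RWAT. The IWAT libraries were above those of EWAT and RWAT, but BAT 3 lay above IWAT 2 and 3. The log2 fold change of 2.80 ± 0.80 over EWAT was just outside the threshold (edgeR adjusted p = 0.0504), and 8 of 23 alternative fits called it. For Scd1 too, the share of all genes called is not given for each of these fits. Per length, Scd1 made up 44.3% (EWAT 1) to 88.7% (BAT 3) of the summed TPM of the 10 genes. Scd2, the paralogue that is known best from brain and from fat cell precursors, was at 765, 141 and 128 CPM in IWAT, 265, 128 and 259 in EWAT, 196, 299.7 and 89.9 in BAT and 134, 178 and 143 in RWAT. Apart from IWAT 1 no depot stood out, and the log2 fold change of 0.67 ± 0.65 over EWAT did not pass (edgeR adjusted p = 0.539). The 2 genes are neighbours on chromosome 19 and similar in sequence, but the deposited posterior standard deviation of their counts was at most 14.8 reads.

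Elovl6, the elongase of palmitate, was high in only 2 libraries. Its CPM was 102, 15.1 and 9.06 in IWAT, 17.7, 11.9 and 18.7 in EWAT, 97.8, 26.6 and 11.9 in BAT and 18.5, 17.6 and 9.47 in RWAT. IWAT 1 and BAT 1 were the 2 high libraries, at 8.48 and 5.08 times the mean of the other two of their depot, and IWAT 3 was the lowest of all 12. The log2 fold change of IWAT over EWAT was 1.39 ± 0.88 (edgeR adjusted p = 0.324). The deposited effective length of Elovl6 ran from 2786 to 5318 bases between libraries, so its TPM also carries the estimate of which transcript was read.

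Aacs, the acetoacetate enzyme, was at 187, 72.9 and 74.5 CPM in IWAT, 33.0, 25.2 and 38.1 in EWAT, 65.3, 45.1 and 72.3 in BAT and 42.2, 30.9 and 29.2 in RWAT. The IWAT libraries were the 3 highest of 12, and all BAT libraries were above all of EWAT and RWAT, which overlapped each other. IWAT 1 was 2.54 times the mean of IWAT 2 and 3. The log2 fold change of IWAT over EWAT was 1.79 ± 0.37 (edgeR adjusted p = 0.0221).

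No gene passed the test between retroperitoneal and inguinal fat. In RWAT against IWAT, 10 of 10 log2 fold changes were below 0, with a median of −1.62, and RWAT lay below IWAT without overlap for 7 of the 10 genes, which held for 15.2% of all genes. These were the 7 genes that also separated IWAT from EWAT, and the 2 comparisons share the IWAT libraries. Without IWAT 1 the median was −1.17, and Acly, Scd2 and Elovl6 were on the other side of 0, at 0.16, 0.17 and 0.33. The edgeR test called 0 of the 10 and 0.0% of all genes at an adjusted p below 0.05. At an unadjusted p below 0.05 it gave 6 of 10, where 19.8% of all genes were. Aacs had −1.71 ± 0.36 (edgeR adjusted p = 0.125), Srebf1 −1.52 ± 0.36 (adjusted p = 0.128) and Fasn −4.15 (SE 1.297, adjusted p = 0.157). DESeq2 called 4 of the 10 in this comparison (Srebf1, Acaca, Acacb and Aacs) and limma-voom 0. In IWAT against EWAT, DESeq2 also called more of all genes than edgeR did. Its share of all genes in RWAT against IWAT is not given, so its 4 calls cannot be set against one. Of the 14 adipocyte markers, 14 had log2 fold changes below 0 in RWAT against IWAT, with a median of −1.67, and they summed to 5533 to 13853 CPM in RWAT. Macrophage markers had 11 of 11 entries above 0, with a median of 1.13, and summed to 5922 to 8629.7 CPM in RWAT against 2861 to 4176 in IWAT. Mesothelial markers had 9 of 9 above 0, with a median of 3.63, and summed to 2.75 to 55.9 CPM in RWAT against 3.12 to 5.69. Of the macrophage entries and of the mesothelial markers, 7 each had an unadjusted p below 0.05 and 0 were called by edgeR. Skeletal muscle markers summed to 888, 49.9 and 5191 CPM in RWAT 1 to 3 against at most 30.4 in IWAT. Their part in the result was not tested.

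No difference between retroperitoneal and epididymal fat passed the test in these genes. The median log2 fold change of RWAT over EWAT was 0.13, 0 of the 10 were called by edgeR (0.00528% of all genes), and 0 had an unadjusted p below 0.05 (4.52% of all genes). The 2 largest differences were those of Acacb, 0.98 ± 0.67, and Scd1, 0.93 ± 0.75, each with an edgeR adjusted p of 0.999. Acacb was the 1 gene whose RWAT libraries all lay above those of EWAT, which held for 3.97% of all genes. Skeletal muscle markers also lay higher, at 888, 49.9 and 5191 CPM in RWAT 1 to 3 against 11.1 to 14.3 in EWAT. Their part in the Acacb level was not tested.

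Brown fat was second to inguinal fat in mean TPM for 8 of the 10 genes, and in mean CPM also for 8. No gene passed the edgeR test against any white depot. Against EWAT, 9 of 10 log2 fold changes were above 0, with a median of 1.21, and 0 were called (0.0845% of all genes). At an unadjusted p below 0.05 there were 3 of 10 (9.41% of all genes): Acacb with 2.79 ± 0.71 (edgeR adjusted p = 0.180), Srebf1 with 0.93 ± 0.35 (adjusted p = 0.406) and Aacs with 0.92 ± 0.36 (adjusted p = 0.424). Acacb was called in BAT against EWAT by DESeq2 and, in edgeR, without BAT 2, and the shares of all genes called in those fits are not given. Aacs alone had all BAT libraries above all EWAT libraries (5.49% of all genes) and, likewise, above all RWAT libraries (4.15%).

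Cell type markers also differed in level between brown and white fat. Against EWAT, 14 of 14 adipocyte markers had log2 fold changes above 0 (median 1.06), 10 of 11 macrophage entries were below 0 (median −1.15) and 9 of 9 mesothelial markers were below 0 (median −5.54). Against IWAT, 14 of 14 adipocyte markers were below 0 (median −1.04), and against RWAT 13 of 14 were above 0 (median 0.61). None of these markers was called by edgeR, and the adipocyte markers summed to 5575 to 26260.2 CPM in BAT. Their part in the result was not tested.

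Against IWAT, BAT had a median log2 fold change of −0.85, with 0 genes called (0.0264% of all genes) and 2 with an unadjusted p below 0.05 (12.4%). These were Srebf1 with −0.83 ± 0.35 (edgeR adjusted p = 0.388) and Aacs with −0.87 ± 0.36 (adjusted p = 0.388). With Mlxipl they were the 3 genes whose BAT libraries all lay below those of IWAT (7.91% of all genes). Against RWAT the median was 0.76, 0 were called (0.0158% of all genes) and 2 had an unadjusted p below 0.05 (4.36%). These were Acacb with 1.81 ± 0.68 and Aacs with 0.84 ± 0.36 (edgeR adjusted p = 1.00 for both).

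When BAT was set against the average of the white depots, it had a median of 0.29 and 0 called genes (0.0528% of all genes), and the 1 gene with an unadjusted p below 0.05 (4.66%) was Acacb, with 1.41 ± 0.50 (edgeR adjusted p = 0.724). Without BAT 1 the median was −0.19. The test of any difference between the 4 depots called 0 of the 10 (0.211% of all genes) and had 6 with an unadjusted p below 0.05 (19.6%), the lowest edgeR adjusted p being 0.0723 for Aacs. BAT 1 stood apart within BAT: its brown adipocyte markers summed to 2252 CPM, against 32.6 and 46.7 in BAT 2 and BAT 3. Its T and NK cell markers summed to 142 CPM, against 10.7 and 41.0, and its skeletal muscle markers to 285 CPM, against 53.2 and 18.3. BAT 1 was also the second highest of 12 for Acly, Acaca, Fasn and Elovl6. With 1 such library, an association of Ucp1 with these genes was not tested.

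The 2 pairs of paralogues were also compared within each library, where no scaling between libraries is needed. The TPM ratio of Scd2 to Scd1 was 0.0191, 0.0142 and 0.00821 in IWAT, 0.232, 0.0275 and 0.0715 in EWAT, 0.0308, 0.0737 and 0.00539 in BAT and 0.0208, 0.0582 and 0.0169 in RWAT. EWAT had the most Scd2 per Scd1 and did not overlap IWAT, and EWAT 1, BAT 2 and RWAT 2, the 3 libraries with the fewest adipocyte transcripts, were each the highest of their depot. The mean log2 ratio was −6.26 ± 0.62 in IWAT and −3.70 ± 1.54 in EWAT (SD, n = 3), a difference of −2.56 with p = 0.1 in a two-sided exact permutation test, the smallest p that 3 against 3 can give. Adjusted over the 14 ratio tests it was 0.56 (exact permutation test).

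The ratio of Acaca to Acacb was 20.96, 2.87 and 2.15 in IWAT, 37.2, 4.76 and 10.7 in EWAT, 4.01, 5.67 and 3.15 in BAT and 8.27, 4.74 and 3.18 in RWAT. The 2 high libraries, EWAT 1 and IWAT 1, reached their ratio differently: Acacb was at its lowest in EWAT 1, at 4.14 CPM, whereas Acaca was at its highest in IWAT 1. These TPM ratios also carry the deposited effective lengths. That of Acacb was 8260, 5625 and 6189 bases in EWAT 1 to 3, and that of Acaca was 4238, 5251 and 4958 in IWAT 1 to 3. No test of either ratio passed, and between pairs of depots none could with 3 libraries each. BAT against the 9 white libraries gave p = 0.714 for Scd2 to Scd1 and p = 0.432 for Acaca to Acacb (exact permutation tests over 220 splits).

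**Figure D4:**
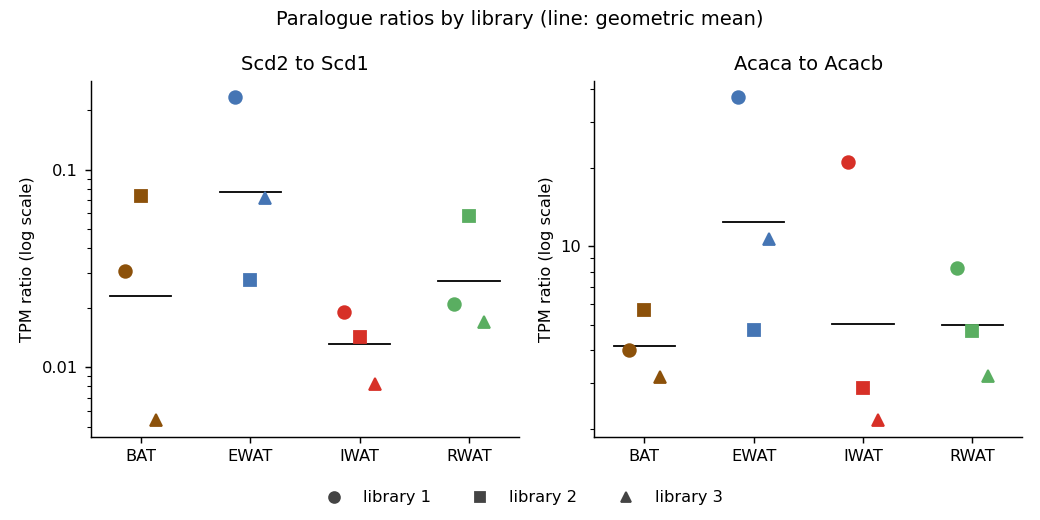
TPM ratio (log axis) of Scd2 to Scd1 (left) and of Acaca to Acacb (right) in each library, by depot, with the geometric mean as a line. Scd2 to Scd1 lies between 0.00821 and 0.0191 in IWAT and between 0.0275 and 0.232 in EWAT, and EWAT 1 is highest in both panels.

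The genes did not vary together as 1 block. Over the 12 libraries, which share depots in threes, log2 CPM of Fasn had a Pearson r of 0.985 with Acaca, 0.902 with Aacs and 0.843 with Srebf1. It was 0.823 with Elovl6, 0.786 with Acly, 0.696 with Acacb, 0.685 with Scd1, 0.561 with Scd2 and 0.561 with Mlxipl. IWAT 1 and BAT 1 carried part of this. Without both, over 10 libraries, r was still 0.942 for Acaca, 0.937 for Aacs and 0.919 for Srebf1. It was −0.108 for Acly, −0.294 for Scd2 and −0.055 for Elovl6, so for these 3 genes the relation rests on those 2 libraries.

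**Figure D5:**
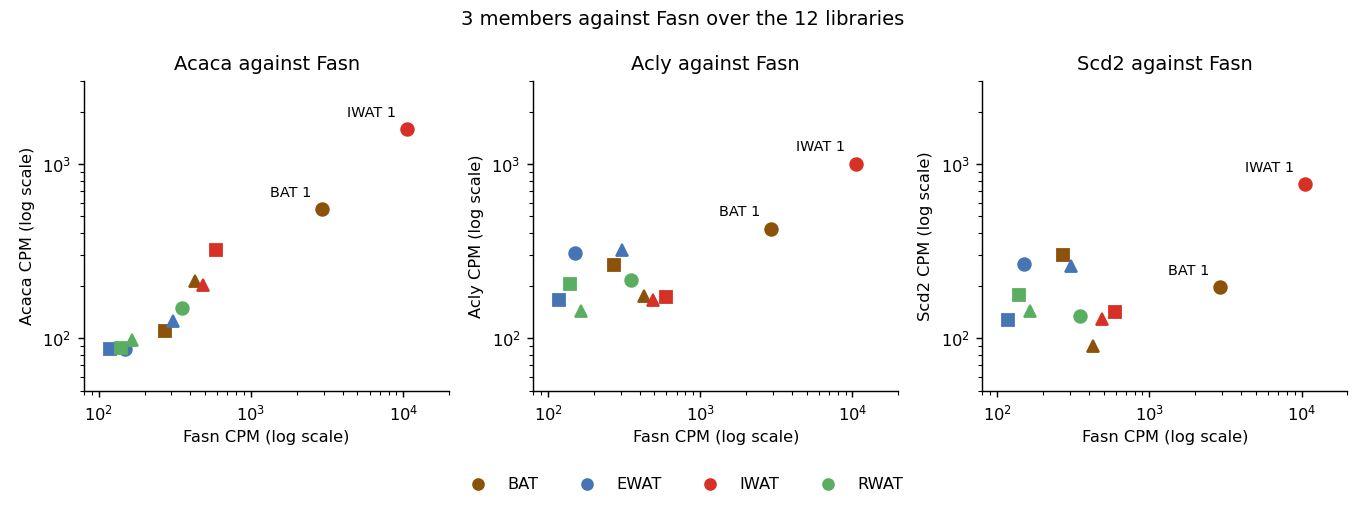
CPM of Acaca, Acly and Scd2 against CPM of Fasn in the 12 libraries (both axes log), coloured by depot. Acaca follows Fasn over the whole range (r = 0.985, and 0.942 without IWAT 1 and BAT 1), whereas Acly and Scd2 show no rise among the other 10 libraries (r = −0.108 and −0.294).

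Among 9684 genes with a mean of at least 10 CPM (Gm and Rik symbols left out), Acaca was the gene most like Fasn. The next were not lipid enzymes but mitochondrial ones. They were Pdha1 (r = 0.983), Clpp (0.982), Atp5b (0.977), Pdhb (0.975), Cs (0.972) and Dlat (0.970). Pdha1, Pdhb and Dlat encode parts of the pyruvate dehydrogenase complex, which makes mitochondrial acetyl-CoA, and Cs encodes citrate synthase, which makes the citrate that Acly uses. Atp5b is a subunit of ATP synthase and Clpp a protease of the mitochondrial matrix. Without IWAT 1 and BAT 1 their r with Fasn was 0.851 (Pdhb) to 0.969 (Dlat). Pdha1 was at 523.5, 214 and 193 CPM in IWAT, 111, 131 and 164 in EWAT, 390.4, 136 and 172 in BAT and 169, 127 and 146 in RWAT, a far narrower range than that of Fasn.

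The supply of substrate and reducing power was followed with lists of other pathway genes in IWAT against EWAT. Of 7 genes of substrate supply 0 were called by edgeR, but 7 of 7 log2 fold changes were above 0, with a median of 1.69. Acss2, which activates acetate, had 2.62 ± 0.87 (edgeR adjusted p = 0.0754), and Slc25a1, the citrate carrier, had 1.99 ± 0.64 (adjusted p = 0.0675). Pdha1 had 1.20 ± 0.45 (adjusted p = 0.102) and Cs 1.04 ± 0.44 (adjusted p = 0.140). Slc25a1 was at 524 CPM in IWAT 1 and at most 114 in any other library, and Acss2 was at 278 in IWAT 1 and at most 85.3 elsewhere. Without IWAT 1, Acss2 was at 0.76 and Slc25a1 at 0.57 (edgeR adjusted p = 0.461 and 0.346).

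Of 7 genes of NADPH supply 0 were called, with a median of 0.39. Me1, the malic enzyme of the cytosol, had 2.50 ± 0.72 (edgeR adjusted p = 0.0517) and was at 1057 CPM in IWAT 1 and at most 178 elsewhere. Without IWAT 1 it was at 1.06 (adjusted p = 0.209 by edgeR). Tkt, a transketolase, had 0.87 ± 0.62, H6pd 0.55 ± 0.38 and Idh1 0.20 ± 0.35 (edgeR adjusted p from 0.369 to 0.757). Without IWAT 1, Tkt and Idh1 were at −0.22 and −0.33.

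Of 11 genes of SREBP and ChREBP control 0 were called, with a median of 0.35. Thrsp, a lipogenic target gene also known as Spot 14, had the largest log2 fold change, 4.91 ± 1.88 (edgeR adjusted p = 0.109). It was at 1404, 93.5 and 130.4 CPM in IWAT, 0.190, 26.7 and 27.4 in EWAT, 382, 2.64 and 105 in BAT and 51.3, 4.55 and 54.0 in RWAT. Without IWAT 1 its log2 fold change was 2.63 (edgeR adjusted p = 0.357). Like Fasn it was highest in IWAT 1 and next in BAT 1, and like the adipocyte markers it was lowest in EWAT 1. Scap, which escorts SREBP out of the endoplasmic reticulum, had 0.35 ± 0.17, and the proteases Mbtps1 and Mbtps2, which release it, had 0.49 ± 0.16 and −0.22 ± 0.16 (edgeR adjusted p from 0.0698 to 0.377).

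Of 8 tested genes of other elongation and desaturation (9 listed) 0 were called, with a median of 0.24. Hacd2, a dehydratase of the elongation cycle, had 1.82 ± 0.53 and Tecr, its reductase, 0.58 ± 0.28. Fads3 had 1.24 ± 0.56, and Elovl1, an elongase of longer chains, was on the other side at −0.82 ± 0.29 (edgeR adjusted p from 0.0539 to 0.197 for the 4).

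Of 6 genes of malonyl-CoA and carboxylase control 0 were called, with a median of 0.16. Mlycd, which degrades malonyl-CoA, had 0.98 ± 0.34 (edgeR adjusted p = 0.0818). The subunits of AMP-activated kinase, which inhibits the carboxylases, had 2.39 ± 0.79 (Prkaa2), 0.29 ± 0.19 (Prkaa1) and 0.00 ± 0.31 (Prkab2), with edgeR adjusted p from 0.0734 to 0.998.

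Of 4 genes of ketone body use 1 was called: Acat1, the mitochondrial thiolase, with 1.71 ± 0.47 (edgeR adjusted p = 0.0466). Acat1 was not called without IWAT 1 (1.15, adjusted p = 0.152). Acat2, the thiolase of the cytosol, had 1.08 ± 0.41, Oxct1 0.83 ± 0.37 and Bdh1 −1.38 ± 0.46 (edgeR adjusted p from 0.0774 to 0.154). Across the other 5 pairs of depots and BAT against the white mean, 0 genes of these 6 lists were called by edgeR.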

How the data were processed

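Per the labels' protocols, ribosomal RNA was removed from total RNA and 75 bp single-end reads were taken. The submitters' processing notes name Trimmomatic 0.36, RSEM 1.3.0, DESeq2 1.10.1 and GRCm38.p4. The aligner and annotation release are not given in the sources used here. Per the file headers, each deposited table holds the expected count of each gene (an estimated read count, not normalized between libraries), the TPM, and other values by the authors (effective length in bases and the posterior standard deviation of the count).

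Expected counts were rounded. Genes passing filterByExpr of edgeR 4.0.16 (minimum count 10; 18942 genes, all 10 fatty acid synthesis genes included) were scaled by TMM (0.846 to 1.14) and tested two-sided with the quasi-likelihood F test. The model held 12 libraries and 1 coefficient per depot (8 residual degrees of freedom). The Benjamini-Hochberg method was applied over these genes, and calls are at an adjusted p below 0.05. The fitted BCV was 0.385. The standard errors (SE) printed with edgeR fold changes are not an output of that test. They are the absolute log2 fold change divided by the square root of its F statistic. TPM ratios were compared by exact permutation tests, with 14 tests adjusted together. The scripts were tested on simulated data. Alternatives were RLE and upper-quartile factors, other filters, DESeq2 1.42.0, limma-voom (limma 3.58.1), only the groups compared, a replicate block, an adipocyte covariate and libraries left out, of which those without both IWAT 1 and BAT 1, and the depot order without each library, were chosen after seeing the data. R 4.3.3 was used.

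Named were all 10 genes, up to 4 genes per pathway list with the smallest p for any depot difference, and the 6 genes with the highest r with Fasn. Other genes are named as cell type markers, or because a value turns on them. The genes and lists were chosen with earlier results of these data known. Same-numbered libraries deviated together in all 3 pairs only between BAT and RWAT (r = 0.18, 0.43 and 0.20). The block changed no call of the 10 genes there. Positions are from GENCODE M21 (GRCm38) and sequences from RefSeq (GRCm38.p6). Counts limit precision by counting error only, and 3 counts equal 0.142 to 0.232 CPM.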

Additional observations from a re-analysis of the deposited data

Results flagged for a closer look

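Within the 9 white fat libraries, IWAT 1 lay far above all others in CPM without logs for 7 of the 10 genes. Its gap to the next library, divided by the range of the 9, passed Dixon's 95% critical value for 9 samples. The gap took 0.955 of the range for Fasn (10533 CPM, next 591), 0.897 for Elovl6 (102, next 18.7) and 0.844 for Acaca (1586, next 320.4). It took 0.795 for Acly (1007, next 320.5), 0.785 for Scd2 (765, next 265), 0.695 for Aacs (187, next 74.5) and 0.628 for Scd1 (35384, next 13814). Chance flags about 1 in 20 such groups if values are normally distributed, and 10 groups were tested, which are not independent. The gaps were taken on CPM without logs, which are skewed, so chance may flag more. The count of 7 holds for this scale and can differ on a log scale. The 9 libraries span 3 depots, so a depot difference counts toward the gap. Srebf1, Mlxipl and Acacb did not pass. What set IWAT 1 apart was not tested. Its adipocyte markers summed to 38661 CPM, against 24485 and 28967 in IWAT 2 and IWAT 3, but single markers differed in both directions. Retn, which encodes resistin, was at 1585, 303 and 324 CPM in IWAT 1 to 3. Plin4 was lower in IWAT 1, at 4212, 4647 and 5449 CPM, as were Aqp7 (121, 169 and 188) and Adipor2 (566, 657 and 635). Adipoq and Pnpla2 in IWAT 1 lay between IWAT 2 and IWAT 3. The other adipocyte markers were highest in IWAT 1.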

How the results depend on the processing

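The count of 4 genes called in IWAT against EWAT was 2 with the replicate block and 2 without both EWAT 1 and BAT 2. It was 0 with the adipocyte covariate and 0 without both IWAT 1 and BAT 1. The labels do not say whether same-numbered libraries came from the same animal, so the block may or may not apply. Leaving out 1 library gave 0 to 6, with 0 without IWAT 1, IWAT 2, EWAT 1 or EWAT 3. Other scaling, filters and tools, and a fit of the groups compared alone, gave 3 to 6. Over all genes, 1710 were called, 639 with the replicate block, 3780 by DESeq2 (whose adjusted p for Fasn was not given) and 0 with the covariate. The covariate did not overlap between IWAT and EWAT, so that fit cannot separate it from the depot. In BAT against EWAT, 0 became 1 by DESeq2 and 0 to 1 over the left-out libraries (1 without BAT 2). In RWAT against IWAT, 0 became 4 by DESeq2. In BAT against the white mean, 0 became 1 without both EWAT 1 and BAT 2. For any depot difference, 0 became 5 by DESeq2, 3 without a filter, 1 without both EWAT 1 and BAT 2, and 0 to 3 over the left-out libraries (3 without BAT 2). For these comparisons other than IWAT against EWAT, the shares of all genes called under the alternatives are not given. In IWAT against EWAT, only the fits whose number of all genes called is printed have one to compare with. Elsewhere the counts of the 10 genes cannot be set against a share. By mean TPM, leaving out 1 library gave 6 to 10 genes highest in IWAT and 5 to 10 lowest in EWAT. No call of the 10 genes changed in the other comparisons under the replicate block.

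Signs turned as follows in IWAT against EWAT. With the adipocyte covariate, Mlxipl was at −0.27, H6pd at −0.0076, Idh1 at −0.27, Thrsp at −1.31, Oxct1 at −0.097 and Prkab2 at −0.094. Without both IWAT 1 and BAT 1, Acly was at −0.66, Scd2 at −0.70, Elovl6 at −0.42, Tkt at −0.22 and Idh1 at −0.33. Prkab2, near 0, was at −0.0052 with RLE, −0.010 with upper-quartile factors, −0.0091 without a filter, −0.0051 by DESeq2 and −0.012 with the replicate block. Over the left-out libraries Acly ran from −0.66 to 1.14, Scd2 from −0.69 to 1.05, Elovl6 from −0.42 to 1.85, Tkt from −0.22 to 1.23, Idh1 from −0.33 to 0.48 and Prkab2 from −0.12 to 0.065. In RWAT against IWAT, Acly, Scd2 and Elovl6 were at 0.16, 0.17 and 0.33 without both IWAT 1 and BAT 1. They ran from −1.65 to 0.16, −1.58 to 0.17 and −1.94 to 0.33 over the left-out libraries. No ratio test passed under any alternative, and between pairs of depots none could, because the smallest p these exact tests can give is 0.1 or more. The Acaca to Acacb difference of RWAT and IWAT was −0.02, 0.10 from CPM, and −0.63 to 1.01 over the left-out libraries. That of BAT and IWAT ran from −0.90 to 0.74 and that of BAT and RWAT from −0.59 to 0.096. The Scd2 to Scd1 difference ran from −0.021 to 1.87 (BAT and IWAT), −1.09 to 0.80 (BAT and RWAT) and −1.23 to 0.66 (BAT and the white mean). The causes were not tested.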
